A study of Mus musculus with 20 samples.

Results

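The comparison described here set C2C12 myotubes that received neural agrin together with the monovalent antibody 11-3F6xb12 against myotubes that received only the control antibody b12. It rests on 8 of the 20 libraries of the study, 4 per treatment, chosen by their labels and matched by replicate number. The question was how far cells that were given agrin in the presence of a MuSK inhibitor lay from cells without agrin. C2C12 is a line of mouse myoblasts, which fuse and form myotubes with many nuclei when serum is lowered. All libraries came from this line after 5 days in differentiation medium with horse serum, followed by 16 h of treatment. Control cells received 7.7 nM b12 hIgG4. The compared group received 0.1 nM neural agrin and 7.7 nM 11-3F6xb12. Both factors, agrin and the antibody, differ between the groups, so their separate parts in any difference cannot be told apart from this comparison alone. The other treatments were 0.1 nM agrin with 7.7 nM b12, 0.1 nM agrin with 7.7 nM 13-3B5xb12, and 7.7 nM bivalent 13-3B5 hIgG4 without agrin. No nerve was present, and a cultured myotube has no true synapse.

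MuSK is the receptor tyrosine kinase that organises the postsynaptic membrane of the neuromuscular junction. Agrin released by the motor nerve binds Lrp4, which activates MuSK, and with the adaptor Dok7 and the scaffold rapsyn this leads to clustering of acetylcholine receptors. Antibodies to MuSK cause a form of myasthenia gravis, and those of the IgG4 class can exchange arms so that each molecule binds MuSK with a single arm. The labels describe 11-3F6xb12 as such a one-armed binder that inhibits MuSK, with b12 as the arm that does not bind it.

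Total counts were 18424881 to 22232391 in the control libraries and 21774545 to 23343903 in the libraries with agrin and 11-3F6xb12. A library detected 17586 to 18259 genes. Replicates 1 and 2 of every treatment separated from replicates 3 and 4 on the first principal component. Control replicate 2 stood apart on the second component, at 20.8, where the other 7 libraries compared lay between -7.48 and 3.21. The comparison was defined as paired by replicate number, so the number was a block in the model. The labels call the replicates biological but do not say what a number shares, so p-values measure the spread between these libraries. Levels are given as CPM, a gene's counts scaled to a common library total with trimmed-mean factors. Myotube genes were abundant in all 8 libraries: 12 markers summed to between 12659 and 17354 CPM.

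Agrin with 11-3F6xb12 lay close to the control, and 3 genes, all for secreted matrix proteins, passed the test. Ogn, Spon2 and Aspn rose, and 0 genes fell. Over the 8814 genes with a mean of at least 8 CPM, the median absolute log2 fold change was 0.07 and 95% of these genes were under 0.26, with a median standard error of 0.10. Absolute log2 fold changes over 0.5 were measured for 20 of these genes and over 1 for 1 gene. Of all 14605 genes tested with edgeR's quasi-likelihood F-test and Benjamini-Hochberg adjustment, 0.0205% passed an adjusted p of 0.05. Without the replicate block 0 genes (0%) passed, the smallest adjusted p was 0.999944, and 474 genes had an unadjusted p under 0.05. DESeq2's Wald test gave 3 genes with the block and 0 without it. In the edgeR fit with the block, 0 genes passed against the same control in each of the other 3 treatments. These include agrin with the control antibody, where the median absolute log2 fold change over the same 8814 genes was also 0.07. Closeness to the control was thus not particular to cells given 11-3F6xb12. Whether this antibody inhibited a response to agrin was not tested by the comparison with control.

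The root mean square of the log2 CPM differences between agrin with 11-3F6xb12 and the control of the same number was 0.185, 0.305, 0.230 and 0.223 for replicates 1 to 4, with a mean of 0.236 ± 0.0504 (SD, n = 4). Each of these pairs lies within replicates 1 and 2 or within replicates 3 and 4. Control replicates 1 and 2 differed by 0.320, a value that includes the control library that stood apart, and control replicates 3 and 4 by 0.226. Control libraries from across this division differed by 0.262 to 0.361. Of the 4 pairs of a treated library and its control, that with control replicate 2 was the farthest apart, and without it the mean was 0.213. Measured the same way, the mean distance from control was 0.250 ± 0.0681 for agrin with b12, 0.258 ± 0.0700 for agrin with 13-3B5xb12 and 0.234 ± 0.0553 for bivalent 13-3B5 (SD, n = 4 each). These values share the control libraries and were not tested against each other. For agrin with 13-3B5xb12 the farthest pair was replicate 1, at 0.344, beside 0.285, 0.203 and 0.198 for replicates 2 to 4. That treated library stood apart on the second principal component, at 30.6.

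**Figure D1:**
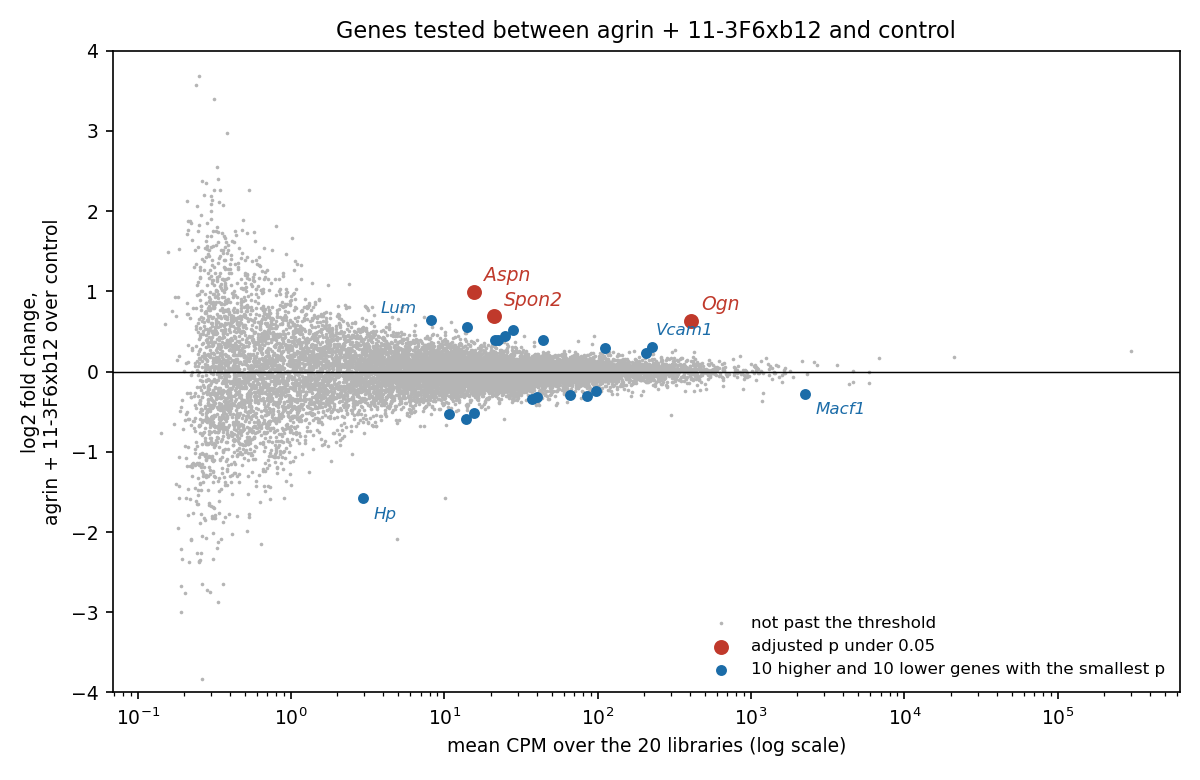
Log2 fold change of agrin with 11-3F6xb12 over control (vertical axis) against mean CPM over the 20 libraries (horizontal axis, log scale), with 1 point per gene. Red points are Ogn, Spon2 and Aspn, which passed an adjusted p of 0.05, and blue points are the 10 higher and 10 lower genes with the smallest p beyond these. Most genes lie near 0, with a wider scatter at low CPM, and 2 of the 14605 genes lie outside the plotted range.

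Ogn encodes osteoglycin, also called mimecan, a small leucine-rich proteoglycan secreted into the matrix. It was present at 432, 425, 283 and 316 CPM in control replicates 1 to 4 and at 591, 707, 512 and 453 CPM with agrin and 11-3F6xb12. Every treated library lay above every control library, the lowest treated value being 453 CPM and the highest control value 432 CPM. The mean was 565 ± 110 against 364 ± 75.7 CPM (SD, n = 4 each). The log2 fold change was 0.64 with a standard error of 0.07, a 95% interval of 0.49 to 0.78, and an adjusted p of 1.21e-05 in the edgeR quasi-likelihood test with the block. The 4 paired log2 differences were 0.45, 0.73, 0.85 and 0.52. Without the block the fold change was nearly the same, 0.63, but its standard error was 0.20 and its unadjusted p 0.00514, which is an adjusted p of 0.999944.

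Spon2 encodes spondin 2, a secreted protein of the F-spondin family. Its levels were 24.1, 20.3, 13.9 and 15.3 CPM in the control and 33.8, 35.2, 27.4 and 22.0 CPM with agrin and 11-3F6xb12. Each treated library was above its own control, while the lowest treated library, replicate 4, was below the highest control library, replicate 1. The log2 fold change was 0.69 with a standard error of 0.11 and an edgeR adjusted p of 0.00574. This call was lost without the block (unadjusted p 0.00769) and without replicate 2, replicate 3, control replicate 2, control replicate 3 or treated replicate 3, where the adjusted p lay between 0.0637 and 0.646.

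Aspn encodes asporin, a further leucine-rich proteoglycan, known as a binding partner of TGF-beta and collagen. It measured 14.9, 17.0, 5.37 and 7.87 CPM in the control and 27.6, 32.1, 17.0 and 12.7 CPM with agrin and 11-3F6xb12. Within replicates 1 and 2 and within replicates 3 and 4 the groups did not overlap, but over all 8 libraries they did, because control replicates 1 and 2 were as high as treated replicates 3 and 4. The log2 fold change was 1.00 with a standard error of 0.18 and an adjusted p of 0.0496 in the edgeR fit with the block. That value sits at the threshold: it was 0.0517 with DESeq2 size factors and 0.0504 after removal of the 2 genes that held over 1% of a library. Leaving out single replicates gave between 0.0345 and 0.889.

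All 3 genes were also higher in control replicates 1 and 2 than in control replicates 3 and 4, the same division of libraries that led the first principal component. With a term for this division in place of the replicate number, the same 3 genes passed, with adjusted p-values of 4.55e-06 for Ogn, 0.00265 for Spon2 and 0.0429 for Aspn. Their log2 differences were 0.59, 0.64 and 0.90 within replicates 1 and 2, and 0.68, 0.75 and 1.16 within replicates 3 and 4.

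**Figure D2:**
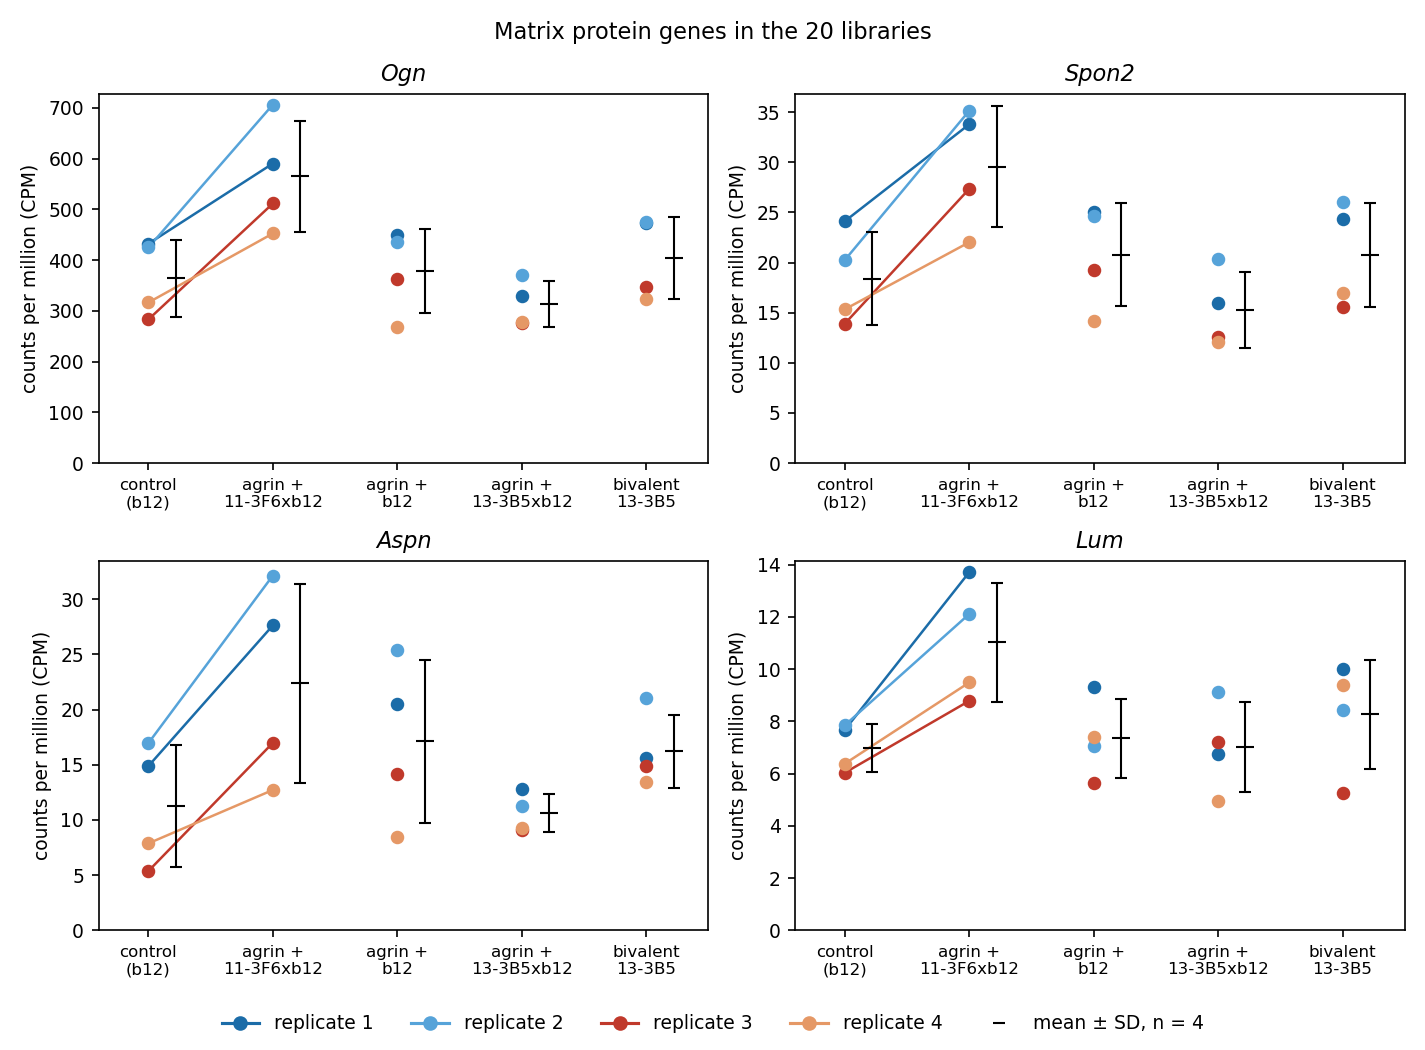
Level of Ogn, Spon2, Aspn and Lum in CPM (vertical axes, from 0) in the 20 libraries of the 5 treatments (horizontal axes). Points are libraries coloured by replicate number, lines join control and agrin with 11-3F6xb12 of the same number, and black bars are the mean ± SD of 4 libraries. All 16 lines go up. For Lum this was a condition of its choice, and Ogn, Spon2 and Aspn were chosen by the test of this contrast. For Ogn the lowest library with agrin and 11-3F6xb12 is at 453 CPM, above all 4 controls.

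Ogn and Aspn are neighbours on mouse chromosome 13. In GRCm38, Aspn spans chr13:49544443-49567565 and Ogn chr13:49608046-49624501, both on the plus strand, with Omd between them at chr13:49582462-49592822 and Ecm2 before them at chr13:49504810-49532789. All 4 encode leucine-rich repeat proteins of the matrix. The sequences around the start sites of Ogn and Aspn are shown because these neighbours rose together. They run on the plus strand from 250 bases before to 50 bases after the RefSeq start in GRCm38.p6, at chr13:49607765-49608064 and chr13:49544193-49544492. Capitals mark E-boxes, the CANNTG motif that myogenic factors and many other proteins bind.
Ogn promoter: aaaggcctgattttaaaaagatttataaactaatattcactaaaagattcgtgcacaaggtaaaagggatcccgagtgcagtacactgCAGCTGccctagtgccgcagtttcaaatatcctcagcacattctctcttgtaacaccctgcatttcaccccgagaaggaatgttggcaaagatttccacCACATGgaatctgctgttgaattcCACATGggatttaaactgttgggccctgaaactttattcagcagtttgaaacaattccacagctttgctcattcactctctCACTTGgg
Aspn promoter: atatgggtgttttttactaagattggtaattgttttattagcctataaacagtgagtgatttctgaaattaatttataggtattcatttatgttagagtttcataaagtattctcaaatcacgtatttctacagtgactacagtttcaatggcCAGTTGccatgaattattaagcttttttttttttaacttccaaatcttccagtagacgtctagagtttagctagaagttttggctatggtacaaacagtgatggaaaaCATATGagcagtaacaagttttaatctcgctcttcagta
The Ogn window held 4 E-boxes and the Aspn window 2, read on both strands, and neither the Omd nor the Ecm2 window held any. An E-box is common, occurring in 72.3% of the 32544 RefSeq promoter windows of this length. The letters TATAAA, read on both strands, occurred 2 times each in the Ogn and Aspn windows, and occur in 13.6% of all windows. In each of these windows 1 match was on the plus strand and 1 on the minus strand. The 2 matches in the Ogn window overlapped, so they mark a single stretch. The letters TAAAAATA (MEF2 core), TGANTCA (AP-1) and GTCTAGAC (SMAD) were found in none of the 4 windows, and occur in 2.7%, 7.79% and 0.215% of all windows. GGGCGG, the GC box, occurred 1 time in the Ecm2 window and in 35.9% of all windows.

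The neighbours of Ogn were measured with less precision. Omd, which encodes osteomodulin, was at 5.82, 6.36, 2.25 and 4.34 CPM in the control and at 9.42, 11.8, 6.24 and 5.64 CPM with agrin and 11-3F6xb12. It was higher in 4 of 4 pairs with a log2 fold change of 0.81 and a standard error of 0.30, and did not pass the edgeR test (unadjusted p 0.0116, adjusted p 0.996). Ecm2 had a log2 fold change of 0.35 with a standard error of 0.23 and was higher in 2 of 4 pairs. The cluster lies inside the span of Cenpp, a centromere protein gene on the minus strand (chr13:49464023-49652785), whose log2 fold change was 0.30 with a standard error of 0.33 at 36 to 96 counts per library. The library kit keeps strand, but whether the counting used it is not given in the sources used here. The flanking genes Ippk, Nol8 and Iars had log2 fold changes of 0.13, 0.05 and -0.16, none past the test.

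Among the small leucine-rich proteoglycans as a family, 2 of the 11 members tested rose (Ogn and Aspn) and 0 fell. The list had 17 members, of which 16 were in the table and 5 of these were too low to test. With unadjusted p under 0.05, 5 of 11 were higher (Ogn, Aspn, Lum, Omd and Dcn) and 0 were lower, beside 2.3% higher and 2.33% lower of all genes tested. Fold changes were above 0 for 9 of 11, with a median log2 fold change of 0.23 beside 0.00 for all genes. The list was chosen with the Ogn result known, so this count is not independent of it.

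Lum, which encodes the collagen-binding proteoglycan lumican, was at 7.68, 7.85, 6.03 and 6.38 CPM in the control and 13.7, 12.1, 8.79 and 9.49 CPM with agrin and 11-3F6xb12, without overlap. Its log2 fold change was 0.65 with a standard error of 0.18 and an edgeR adjusted p of 0.92. Over all genes tested, 1.07% were higher without overlap. Dcn, the gene of decorin, was at 803 ± 91.8 against 921 ± 54.2 CPM (SD, n = 4 each), a log2 fold change of 0.20 and higher in 4 of 4 pairs. Bgn, the gene of biglycan, and Podnl1 had log2 fold changes of -0.25 and -0.07. For Bgn a single library set the control mean, since control replicate 2 held 283 CPM and the other 3 controls 153 to 166 CPM. The difference between the members was thus wide, from -0.25 for Bgn to 1.00 for Aspn.

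No change was detected in the collagens that these proteoglycans bind. Of 13 fibrillar and fibril-associated collagen genes tested of 14 listed, 0 passed the edgeR test, and 0 had an unadjusted p under 0.05. The median log2 fold change was 0.00. Col3a1 was at 3451 ± 385 CPM in the control and 3649 ± 263 CPM with agrin and 11-3F6xb12 (SD, n = 4 each), and Col5a1, Col16a1 and Col1a1 had log2 fold changes of 0.11, -0.14 and -0.23. Among 22 other matrix glycoproteins tested of 28 listed, Spon2 alone passed, with log2 fold changes in a range of -2.09 to 0.69. Efemp1, a fibulin gene, did not overlap between the groups, at 2.62 to 3.29 against 3.71 to 4.39 CPM, with a log2 fold change of 0.47. It did not pass, and 1.07% of all genes tested were higher without overlap. Fbln5, the gene of a fibulin that binds elastic fibres, and Vcan, which encodes versican, had log2 fold changes of -0.27 and -0.29 and did not pass.

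Whether these genes also differed from the other treatments with agrin was tested directly. Against agrin with b12, which shares the agrin and differs only in the antibody, 2 genes (0.0137%) passed, both higher with 11-3F6xb12. Ogn was at 565 ± 110 CPM against 379 ± 82.8 CPM (SD, n = 4 each), a log2 fold change of 0.58 with a standard error of 0.07 and an edgeR adjusted p of 8.38e-05. The other was mt-Nd1, a mitochondrially encoded subunit of respiratory complex I, with a log2 fold change of 0.56 and an adjusted p of 0.0101. Spon2 differed by 0.52 (adjusted p 0.264) and Aspn by 0.39 (adjusted p 0.983) in that contrast, and neither passed. Over control, mt-Nd1 had log2 fold changes of 0.24 with agrin and 11-3F6xb12 and -0.32 with agrin and b12. It passed in neither of these comparisons with control. The mt-Nd1 call against agrin with b12 was lost without replicate 2.

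Against agrin with the other one-armed antibody, 13-3B5xb12, at the same doses and time, 5 genes (0.0342%) passed. Ogn, Spon2, Aspn and Tspan8 were higher with 11-3F6xb12, by 0.84, 0.96, 0.99 and 0.81 on the log2 scale, with edgeR adjusted p-values of 1.85e-08, 9.75e-06, 0.0353 and 0.00864. Hp, the gene of haptoglobin, was lower, with a log2 fold change of -2.04 and an adjusted p of 0.0337. Tspan8 encodes a tetraspanin of the cell surface. It was at 35.8 ± 11.5 CPM with 11-3F6xb12 and 20.4 ± 5.81 CPM with 13-3B5xb12 (SD, n = 4 each). With only the 2 groups of this contrast in the fit, Ogn and Spon2 alone passed. Without the block 0 genes passed in either contrast in edgeR, with DESeq2's Wald test giving 0 and 2.

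In none of the other 3 treatments did Ogn, Spon2 or Aspn pass the edgeR test against the control. For Ogn the log2 fold changes over control were 0.06 with agrin and b12, -0.20 with agrin and 13-3B5xb12, and 0.15 with bivalent 13-3B5. For Spon2 they were 0.17, -0.27 and 0.17. For Aspn they were 0.61, 0.01 and 0.61, beside 1.00 with agrin and 11-3F6xb12, so that for this gene the treatment with agrin and b12 lay between the control and agrin with 11-3F6xb12. Each of these contrasts used the same 4 control libraries. For Aspn the unadjusted edgeR p was 0.00271 with agrin and b12 and 0.00256 with bivalent 13-3B5. The missed threshold thus does not show that Aspn was unchanged in those treatments.

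Beyond the 3 genes that passed, the 10 higher genes with the smallest p and the same direction in 4 of 4 pairs had adjusted p-values between 0.734 and 0.996. They were chosen by this contrast, and their values are a description. Over all genes, 6.58% were higher and 5.83% lower in 4 of 4 pairs. Vcam1, the adhesion molecule that myoblasts use during fusion, was at 222, 216, 183 and 209 CPM in the control and 243, 248, 257 and 272 CPM with agrin and 11-3F6xb12, a log2 fold change of 0.30. Gulp1, an adaptor gene for engulfment receptors, was at 26.3, 27.5, 18.2 and 21.5 CPM against 33.5, 32.8, 29.1 and 31.0 CPM, a log2 fold change of 0.45. For both of these genes, as for Lum, all treated libraries lay above all controls, which held for 1.07% of all genes.

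The others among these 10 were Cmbl, Tspan8, Tspan12, Gcnt1, Selenow, Tmem123 and Selenop. The tetraspanin genes Tspan8 and Tspan12 had log2 fold changes of 0.51 and 0.30. Gcnt1, which encodes an enzyme that branches O-linked sugar chains, had one of 0.55, and its control libraries fell into the same division as those of Aspn, with 16.8 and 18.2 CPM in replicates 1 and 2 and 6.14 and 5.07 CPM in replicates 3 and 4. Selenow and Selenop, which encode selenoproteins, had log2 fold changes of 0.39 and 0.40. Cmbl, a hydrolase gene, and Tmem123 had 0.39 and 0.24.

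The 10 lower genes with the smallest p were led in size by Hp, an acute-phase protein that binds free haemoglobin. Hp was at 1.72, 0.98, 5.93 and 3.62 CPM in the control and at 0.58, 0.74, 0.50 and 1.88 CPM with agrin and 11-3F6xb12. It was low everywhere and varied between controls by more than the difference in replicate 2. Its log2 fold change was -1.57 with a standard error of 0.39 and an edgeR adjusted p of 0.804. Gltp, the glycolipid transfer protein gene, was at 11.3, 14.8, 11.9 and 11.9 CPM against 8.64, 9.44, 7.74 and 8.61 CPM. Gltp and Sec23ip, whose product acts at sites of vesicle export, did not overlap between the groups, as 1.08% of all genes did in this direction.

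Sod3, which encodes the secreted superoxide dismutase, had a log2 fold change of -0.60, Gltp -0.53 and the kinase gene Nek6 -0.51. Sec23ip was at -0.34, Ier5, an early response gene, at -0.32 and Sbno2, a corepressor gene, at -0.30. The splicing factor gene Prpf6 was at -0.29, the cytoskeletal linker gene Macf1 at -0.27 and the cytokine receptor gene Il4ra at -0.24. Macf1 had its largest paired difference in replicate 2, where the control held 2781 CPM and the treated library 1825 CPM.

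**Figure D3:**
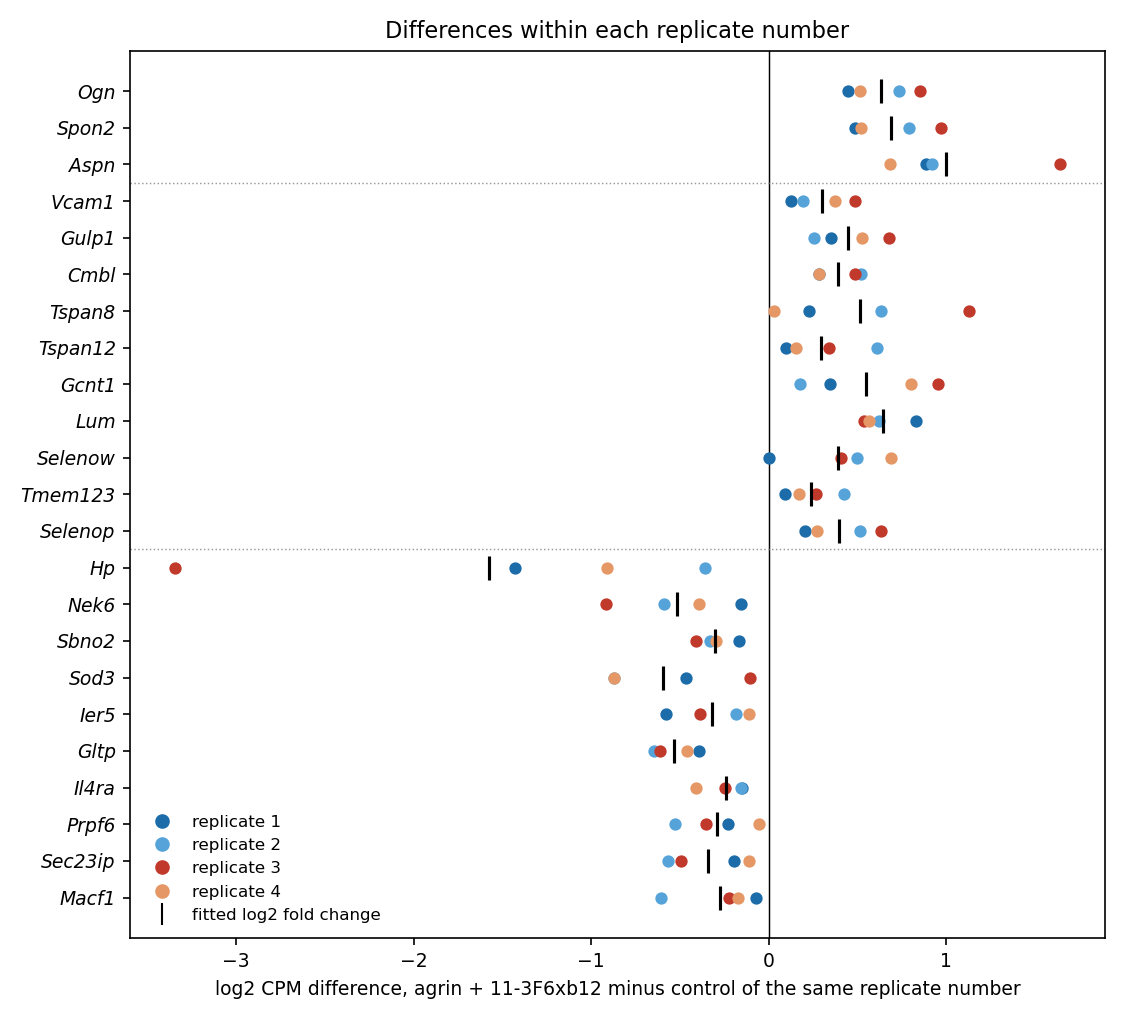
Log2 CPM difference between agrin with 11-3F6xb12 and the control of the same replicate number (horizontal axis) for the 3 genes that passed, the 10 higher and the 10 lower genes with the smallest p (vertical axis, in blocks parted by dotted lines). Points are the 4 replicate numbers and black bars the fitted log2 fold changes. All points of a gene lie on 1 side of 0 by the choice of the genes, and Hp spreads most, with its replicate 3 far from the other 3.

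The acute-phase and chemokine list, to which Hp belongs, had no member past the test among 15 tested of 17 listed. Its median log2 fold change was -0.17, with 10 of 15 below 0. Lcn2, the gene of lipocalin 2, was at 0.62, 0.88, 7.82 and 3.89 CPM in the control and 0.14, 0.25, 1.64 and 5.64 CPM with agrin and 11-3F6xb12, lower in 3 of 4 pairs. Saa3, the most abundant acute-phase gene here, was at 169, 153, 465 and 393 CPM against 110, 88.8, 250 and 401 CPM, also lower in all pairs but replicate 4. Within each group Lcn2 and Saa3 were higher in replicates 3 and 4 than in replicates 1 and 2, a spread larger than the difference between the treatments. Hp followed this division in the control only, since its lowest treated library was replicate 3. The chemokine genes Ccl2 and Cx3cl1 had log2 fold changes of 0.34 and 0.36 and did not pass. At an unadjusted p under 0.05, 2 of the 15 were higher and 2 lower, beside 2.3% higher and 2.33% lower of all genes.

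No change was detected in the genes of the agrin receptor complex. Musk itself was at 49.5, 66.0, 51.2 and 54.7 CPM in the control and 50.6, 51.9, 59.8 and 53.3 CPM with agrin and 11-3F6xb12. The groups overlapped fully, and the log2 fold change was -0.04 with a 95% interval of -0.21 to 0.13. Lrp4, the agrin receptor, was at 207 ± 13.4 against 203 ± 16.1 CPM (SD, n = 4 each), a log2 fold change of -0.03 with an interval of -0.17 to 0.10. Agrn, the muscle's own agrin gene, was at 0.03 (interval -0.28 to 0.33), and Dok7 at -0.11 (interval -0.35 to 0.13). Rapsn, the gene of rapsyn, had a log2 fold change of 0.08 with an interval of -0.06 to 0.21. None of these 5 intervals reached 0.5 in either direction.

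Across the 20 genes of the complex and its adaptors, 0 passed the edgeR test and 0 had an unadjusted p under 0.05, with a median log2 fold change of -0.04. The signs of Musk, Lrp4 and Agrn changed when single libraries were left out, so no direction is given for them. Abl1, a tyrosine kinase gene downstream of MuSK, and Apc, which links receptor clusters to microtubules, were the lowest by p at -0.18 and -0.15. Cdc42, a small GTPase gene, was at 0.08.

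Nor was a change detected in the 5 muscle acetylcholine receptor subunits, of which 0 passed the edgeR test and 0 had an unadjusted p under 0.05. Chrna1 was the most abundant per length of transcript, at 134 CPM per kilobase in the control, followed by Chrnb1 at 47.8, Chrnd at 39.2, the embryonic subunit gene Chrng at 21.4 and the adult subunit gene Chrne at 1.90. Chrna1 was at 601, 601, 589 and 564 CPM in the control and 616, 621, 567 and 568 CPM with agrin and 11-3F6xb12, a log2 fold change of 0.01 with an interval of -0.10 to 0.13. Chrnb1 and Chrnd had 0.01 (interval -0.12 to 0.15) and 0.04 (interval -0.10 to 0.17). For Chrne, at 1.63 to 4.18 against 1.97 to 4.65 CPM, the interval was wider, from -0.48 to 0.63. Chrng had a log2 fold change of -0.06 with an interval of -0.34 to 0.21, and its highest library was control replicate 2, at 136 CPM, the library that stood apart.

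**Figure D4:**
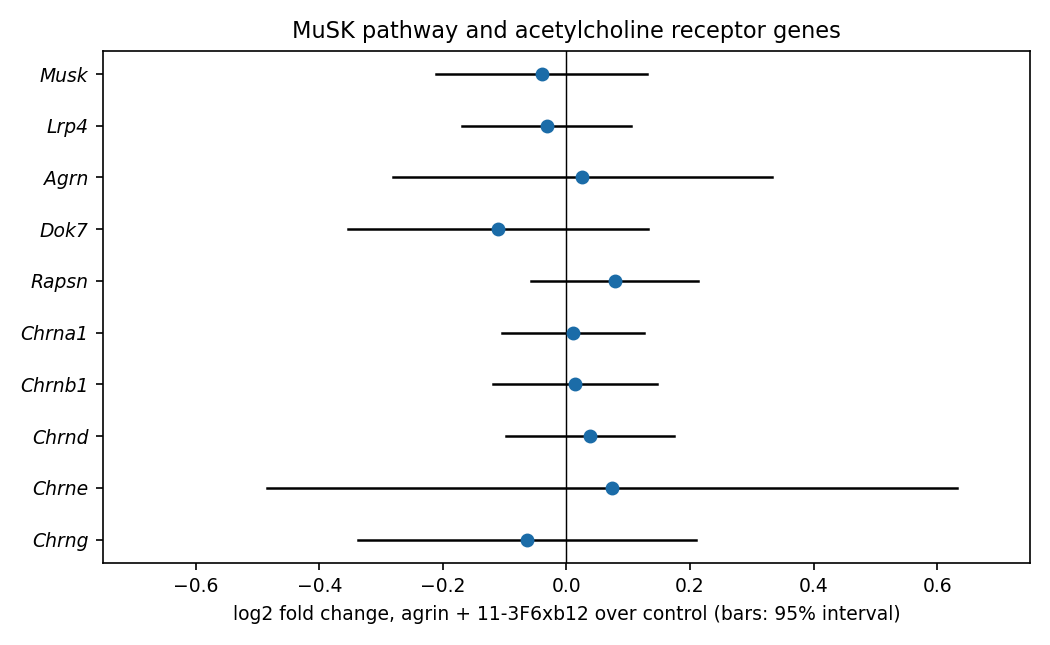
Log2 fold change of agrin with 11-3F6xb12 over control (horizontal axis) for the 5 receptor complex genes and the 5 acetylcholine receptor subunit genes (vertical axis). Points are the fitted values of 4 against 4 libraries and bars their 95% intervals, all of which include 0, the widest being that of Chrne.

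Other genes of the synapse gave no call either. Of 19 synaptic matrix and postsynaptic membrane genes tested of 22 listed, 0 passed and the median log2 fold change was 0.01. Nid1, which encodes the basement membrane protein nidogen 1, and the laminin chain gene Lama5 were the lowest by p at -0.20 and -0.18, and Dtna (dystrobrevin) and Prkar1a (a protein kinase A subunit) the highest at 0.10 and 0.07. Among 8 neuregulin receptor and ETS factor genes tested, 0 passed. Gabpa, the ETS factor gene known to act on synaptic promoters, was at 83.4 to 89.8 CPM in the control and 93.9 to 104 CPM with agrin and 11-3F6xb12, without overlap. Its log2 fold change was 0.16 with a standard error of 0.06, an unadjusted p of 0.0164 and an adjusted p of 0.996. Over all genes tested, 1.07% were higher without overlap. Erbb2 and Erbb3, the neuregulin receptor genes, were at -0.16 and -0.11, and Etv5 was at 0.16.

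No readout gene of intracellular signalling passed the test at 16 h. ERK feedback inhibitors, whose transcription follows ERK activity, had 0 of 10 members past the test and a median log2 fold change of 0.02. Dusp4 and Spred1 were at 0.12 and 0.08, Spred2 and Spred3 at -0.29 and -0.40. Immediate early genes had 0 of 18 past the test and a median of 0.01 in a range of -0.59 to 0.45, with Egr2 and Btg2 at 0.45 and 0.17 and Fosl2 and Ier3 at -0.24 and -0.21. MuSK has also been described as a BMP co-receptor. Of 14 BMP targets tested, 0 passed and the median was 0.03 in a range of -0.50 to 0.80, with Id1 at 5.69 ± 1.38 against 7.22 ± 0.907 CPM (SD, n = 4 each), Car3 at 0.25, and Smad7 and Smad9 at -0.15 and -0.50 on the log2 scale.

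Of 16 TGF-beta family genes tested, 0 passed, and 3 were higher and 0 lower at an unadjusted p under 0.05, beside 2.3% higher and 2.33% lower of all genes. Fst, which encodes the activin and myostatin inhibitor follistatin, was at 113, 90.8, 75.2 and 68.3 CPM in the control and 115, 107, 97.1 and 85.7 CPM with agrin and 11-3F6xb12, a log2 fold change of 0.24. Ccn1, the gene of a matricellular protein, was at 0.24 as well. Inhbb and Tgfbr2 were at -0.12 and -0.06.

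In the muscle programme of the cells no change was detected. Of 32 sarcomere genes tested 0 passed, with a median log2 fold change of 0.02. Des, the gene of the intermediate filament protein desmin, was lower without overlap, at 1655 to 1705 CPM in the control and 1498 to 1553 CPM with agrin and 11-3F6xb12. Its log2 fold change was -0.13, the unadjusted p was 0.0266 and the adjusted p 0.996. Over all genes tested, 1.08% were lower without overlap. Neb, Actc1 and Mybpc1 were at -0.21, 0.13 and 0.37. Of 10 myogenic and MEF2 factor genes tested 0 passed, with log2 fold changes in a range of -0.90 to 1.00. The early myogenic gene Myf5 was at 9.35, 7.62, 16.3 and 13.1 against 15.2, 10.9, 18.6 and 17.6 CPM, higher in 4 of 4 pairs, and the satellite cell gene Pax7 was at 1.64 to 4.04 against 0.91 to 1.53 CPM. Their log2 fold changes were 0.44 and -0.90. Mymx, which acts in fusion, was at 0.18 and Mef2d at -0.15.

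Genes that respond to denervation or atrophy had 0 of 20 past the test, with a median of -0.04. The metallothionein genes Mt1 and Mt2 were at 0.21 and 0.20, and Runx1 and Cdkn1a at -0.17 and -0.15. Cell cycle genes had 0 of 25 past the test and a median of 0.00, with Aurkb and Ccna2 at 0.54 and 0.33 and the replication genes Mcm3 and Mcm6 at -0.24 and -0.14. Of 23 cholesterol synthesis genes 0 passed and the median was -0.01. Insig1, a brake on that pathway, was at 0.25, Idi1 at 0.28 and Srebf2 at -0.16. Interferon-stimulated genes had 0 of 17 tested past the test of 24 listed. At an unadjusted p under 0.05, 2 were higher and 0 lower, beside 2.3% higher and 2.33% lower of all genes. The median of the list was 0.18. B2m, which encodes beta-2-microglobulin, and Gbp2 were at 0.18 and 0.33, and Stat2 and Bst2 at -0.29 and -0.41.

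**Figure D5:**
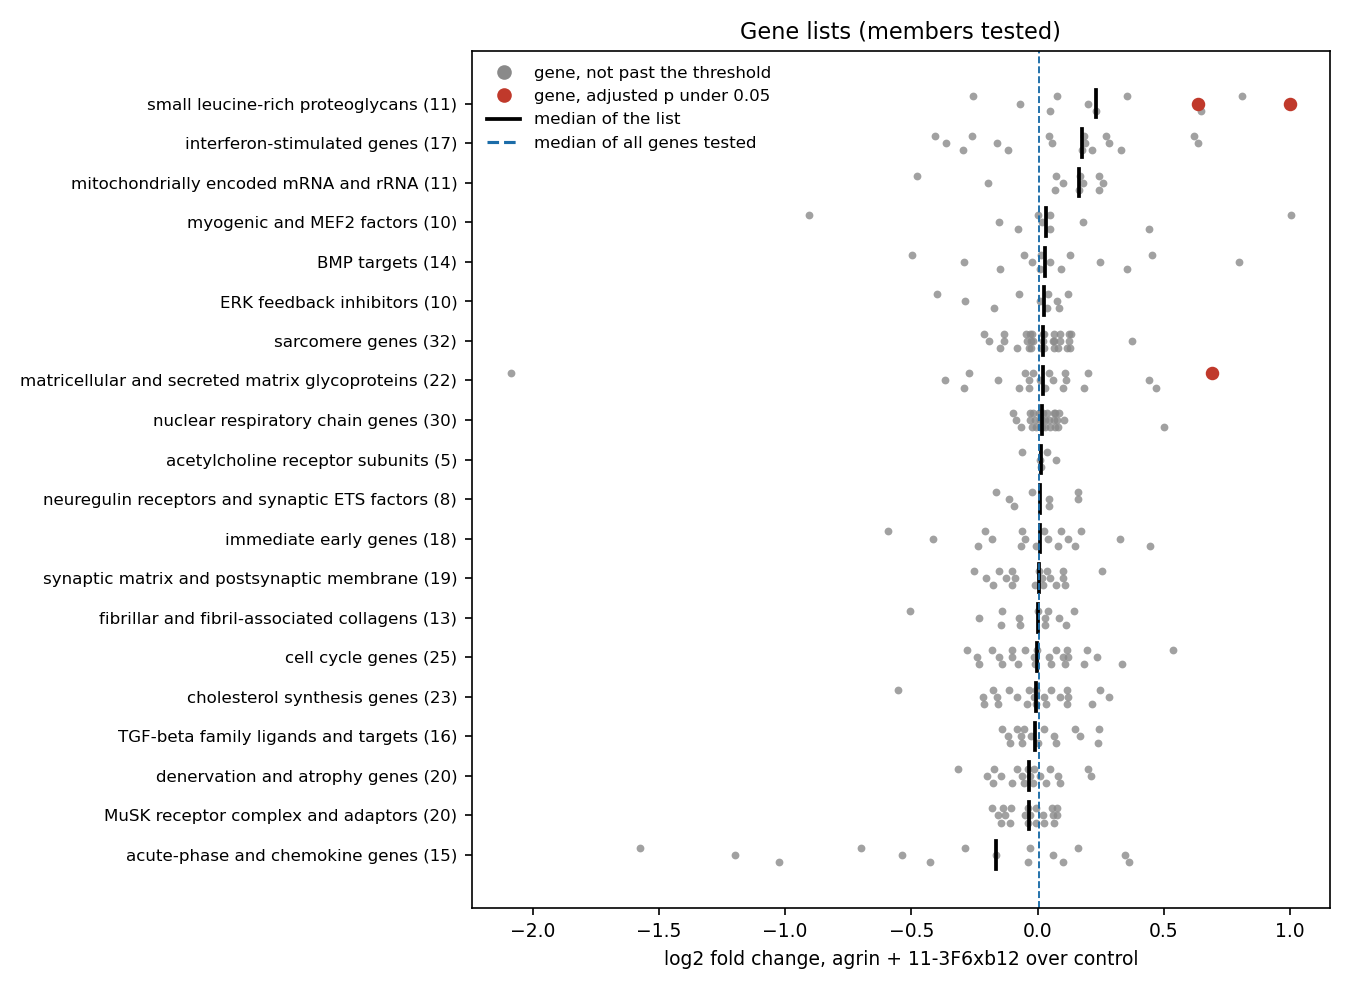
Log2 fold change of agrin with 11-3F6xb12 over control (horizontal axis) for the members tested of 20 gene lists (vertical axis, number tested in brackets), ordered by median. Points are genes, set at 3 heights only to keep them apart, black bars are medians, and the dashed line is the median of all 14605 genes. The red points, Ogn and Aspn in the first list and Spon2 among the matrix glycoproteins, are the genes that passed.

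Mitochondrial RNA took a larger part of the counts in 3 of the 4 treated libraries. The share was 34.7, 30.2, 28.9 and 32.5% in control replicates 1 to 4 and 39.1, 39.0, 32.1 and 31.8% with agrin and 11-3F6xb12. The paired differences were 4.45, 8.86, 3.28 and -0.652 percentage points. The mean was 35.5 ± 4.09% against 31.6 ± 2.58% (SD, n = 4 each), and a two-sided exact permutation test gave p = 0.2, where 0.0286 is the smallest p that 4 against 4 libraries allow. Most of it was mt-Rnr2, the large mitochondrial ribosomal RNA, which held 32.6% against 28.8% of counts. Per the labels the library kit removed ribosomal RNA, so the share is not a direct measure of the level in the cells. Whether that removal differed between libraries was not tested. Mitochondrial messenger RNA held 0.795 ± 0.0722% against 0.755 ± 0.0203%, with an exact permutation p of 0.371.

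Of 11 mitochondrially encoded genes tested 0 passed, with a median log2 fold change of 0.17. At an unadjusted p under 0.05, 3 were higher and 0 lower, beside 2.3% higher and 2.33% lower of all genes. The ribosomal RNA gene mt-Rnr2 and mt-Nd1 were the highest by p at 0.26 and 0.24, and mt-Nd4 and mt-Co3 the lowest at -0.20 and -0.48. For mt-Co3 a single library set the value: control replicate 4 held 23.6 CPM and the other controls 3.86 to 5.82 CPM. Nuclear genes of the respiratory chain had 0 of 30 past the test and a median of 0.02. Sdhc and Cox7a1 were at 0.08 and 0.50, Ndufv1 and Uqcrc1 at -0.10 and -0.09. The mitochondrial share was higher in 3 of 4 pairs and Ogn in 4 of 4. After removal of mt-Rnr1 and mt-Rnr2 the log2 fold change of Ogn was 0.64 and its edgeR adjusted p 1.41e-05. Both fits were scaled with trimmed-mean factors, so this removal cannot tell the part of the mitochondrial share in the Ogn result. That part was not tested.

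The makeup of the cultures was followed with markers of the cell types they could hold. In bulk RNA, fewer cells of a type and less RNA per cell cannot be told apart. Myoblast and reserve cell markers, 11 of 11 in the table, summed to 2259 to 2564 CPM in the control and 2225 to 2636 CPM with agrin and 11-3F6xb12. They moved apart: Vcam1 and Myf5 had positive log2 fold changes, and Pax7 and Notch3 had -0.90 and -0.40. Fibroblast and fibro-adipogenic markers, 11 of 12 in the table, summed to 4341 to 5091 against 4705 to 5367 CPM and were higher in 3 of 4 pairs. Lum and Dcn belong to this list as well as to the proteoglycans, and 7 of its 10 members tested had a log2 fold change above 0, with a median of 0.14. The part of this sum in the Ogn, Aspn and Spon2 results was not tested.

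Ogn, Omd and Aspn are also known from bone, so osteoblast and chondrocyte markers were included. They summed to 1155 to 2398 CPM in the control and 1431 to 2184 CPM with agrin and 11-3F6xb12, nearly all of it Spp1 (osteopontin), which had a log2 fold change of 0.00. Of the 11 listed markers, Bglap, Sp7, Alpl and Col2a1 were at or under 3 counts in all 8 libraries, and Ibsp and Acan were not in the table. Spp1, Runx2, Sox9 and Col10a1 were expressed enough to test. Of these 4, 3 had a log2 fold change above 0, in a range of -0.13 to 0.53, and 0 passed. Adipocyte markers, only 4 of 8 in the table, summed to 3.62 to 5.94 against 5.45 to 7.69 CPM, with Plin1 at or under 3 counts. This sum was higher in 4 of 4 pairs, as were 6.58% of all single genes tested. Adipoq, Lep, Cfd and Cidec were not in the table, and Pparg, the only member tested, did not pass. Macrophage markers summed to 4.86 to 12.3 against 6.03 to 10.9 CPM, with Adgre1 and Ptprc at or under 3 counts. Hepatocyte markers, added because Hp is a liver gene, summed to 0.0511 to 1.04 against 0.145 to 0.543 CPM, with Alb, Apoa2, Ttr, Fgb and Fga at or under 3 counts. Endothelial markers summed to 0.953 to 1.53 against 0.585 to 1.78 CPM.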

How the data were processed

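RNA-seq libraries of C2C12 myotubes numbered 20, 4 per treatment. The deposited table holds whole-number counts per gene and library, not normalized by the authors as far as its values show. The submitters' processing notes name Trim Galore 0.6.6, cutadapt 2.10, STAR 2.7.6a, HTSeq 0.12.4, DESeq2 1.32.0 and the build GRCm38, without their roles or settings. Per the labels, a stranded kit with removal of ribosomal RNA was used. The strand setting of the counting and the handling of reads shared by similar genes are not given in the sources used here. Of 26722 genes, 532 were at 0 throughout, and 26667 matched GENCODE M21, the source of gene positions.

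Counts were tested in R 4.3.3 with edgeR 4.0.16: the filterByExpr function (minimum count 10, minimum total 15) kept 14605 genes and TMM factors scaled the libraries. A robust quasi-likelihood fit of all 20 libraries had treatment and replicate number as terms and 12 residual degrees of freedom. Benjamini-Hochberg adjustment ran over all genes tested, and an adjusted p under 0.05 was the threshold. The script was tested on simulated data. Replicate number is a block because the comparison is defined as paired by number; the numbers come from the sample titles. No 2 libraries of a group agreed within sampling noise, the smallest chi-square per gene being 5.17. A prior count of 2 was added for log2 CPM. The mitochondrial share was compared with an exact permutation test. Promoter sequences are RefSeq's, matched by symbol for Ogn, Aspn, Omd and Ecm2. For Spon2 none was matched.

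The comparison, the gene lists, the cell type markers and the rule for naming genes were chosen with earlier results of these data known. By that rule the text names every gene with an adjusted p under 0.05 with or without the block, then the 10 higher and 10 lower genes with the smallest p that had a mean of at least 1 CPM and the same direction in 4 of 4 pairs. It also names Musk, Lrp4, Agrn, Dok7, Rapsn and the acetylcholine receptor subunits, and the 2 members of each list with the smallest p in each direction, except 1 that is not reported here. Other genes were chosen after their values were seen. Alternatives were no block, a term for replicates 1 and 2 against 3 and 4, DESeq2 size factors, no filter, a mean count of at least 10, removal of genes over 1% of a library, only the 2 groups compared, limma 3.58.1 voom with quality weights, the Wald test of DESeq2 1.42.0, and leaving out each replicate. Added after the data were seen were removal of both libraries that stand apart and the Wald test without the block.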

Additional observations from a re-analysis of the deposited data

Results flagged for a closer look

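The values below belong to libraries that stood far from the other 3 of their group. Among 216 groups of 4 libraries examined 13 were noted, where chance gives about 1 in 20, or 10.8. Counts were present for 17586 genes in control replicate 4 and for 17905 to 17950 in the other controls. Control replicate 2, which stood apart on the second principal component, was high for Bgn at 283 CPM (others 153 to 166), Runx1 at 79.4 CPM (58.4 to 59.8), mt-Nd4 at 20.1 CPM (13.2 to 14.1), Gltp at 14.8 CPM (11.3 to 11.9) and Mybpc1 at 7.34 CPM (4.96 to 5.198). Control replicate 4 was high for mt-Co3, at 23.6 CPM (3.86 to 5.82). With agrin and 11-3F6xb12, replicate 1 was low for Vcan at 146 CPM (172 to 175) and Btg2 at 18.6 CPM (22.3 to 23.0) and high for Ndufv1 at 175 CPM (160 to 161). Replicate 3 was low for Inhbb at 81.0 CPM (105 to 108) and high for Sod3 at 13.7 CPM (9.08 to 9.74). Replicate 4 was low for Mybpc1, at 4.68 CPM (8.24 to 8.41).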

How the results depend on the processing

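The count of genes that passed against the control was 3. It was 0 without the replicate block (edgeR, 474 genes at an unadjusted p under 0.05, and DESeq2), 3 with a term for replicates 1 and 2 against 3 and 4, 2 with DESeq2 size factors, a mean count of at least 10 or without mt-Rnr1 and mt-Rnr2, 3 with only the 2 groups compared or DESeq2 with the block, and 4 with voom. Without a filter on low counts it was 30 (12 higher, 18 lower). These included 9 genes named by the rule that did not pass in the main fit. They were Vcam1, Hp, Tspan8, Sod3, Selenop, mt-Rnr2, Macf1, Ccl2 and Vcan. Saa3, Cebpd, Lars2 and mt-Rnr1 passed there as well. Without control replicate 2 and agrin with 13-3B5xb12 replicate 1, which stand apart, the count was 5, adding Cebpd and Angptl4. Leaving out single replicates gave 1 to 3. The cause of these differences was not tested. Ogn passed in 21 of 23 alternatives, Spon2 in 16 and Aspn in 8, all with a positive fold change, and the range for Ogn without single replicates was 0.56 to 0.70. The pairing by number was checked on the deviations from the group means: their correlation across 11149 genes was 0.384, 0.209, 0.319 and 0.0952 for numbers 1 to 4, a mean of 0.252, beside 0.211 for other numbers of the same division and -0.231 across divisions. Treated replicates 1 and 3 correlated best with the control of their own number. Treated replicates 2 and 4 correlated better with control replicates 1 and 3 than with their own number. By this check libraries of the same number share the division, and whether they share more is not clear. A term for the division gave the same 3 genes as the block. Against agrin with b12 the count of 2 became 0 without the block in edgeR and in DESeq2, 30 without a filter, 19 with only the 2 groups, 17 without both libraries that stand apart, 11 with voom, 8 with DESeq2 and the block, and 1 to 2 without single replicates. Against agrin with 13-3B5xb12 the count of 5 became 0 without the block, 10 with the division term, 65 without a filter, 2 with only the 2 groups, 16 without both libraries, 14 with voom, 25 with DESeq2 and the block, 2 with DESeq2 and no block, and 3 to 8 without single replicates. The mean distance from control was 0.379 with genes of at least 1 CPM, and 0.213 to 0.253 without single numbers. The mitochondrial difference was 2.36 to 5.53 percentage points without single replicates. Of 104 named genes 91 kept their sign in all settings. For the other 13, log2 fold changes without single replicates ranged from -0.87 to 0.39 for mt-Co3, -0.007 to 0.29 for Etv5, -0.68 to 0.12 for Bst2, -0.25 to 0.0653 for Smad7, -0.41 to 0.16 for Col1a1, -0.14 to 0.003125 for Podnl1, -0.19 to 0.14 for Chrng, -0.10 to 0.0377 for Lrp4, -0.13 to 0.0707 for Musk, -0.11 to 0.23 for Chrne, -0.0562 to 0.0520 for Chrnb1, -0.0179 to 0.0458 for Chrna1 and -0.13 to 0.21 for Agrn. Without both libraries that stand apart Smad7 was at 0.0379, Col1a1 at 0.14, Chrng at 0.14, Lrp4 at 0.0236 and Musk at 0.0653, and with voom Chrng was at 0.0445 and Musk at 0.0340. Depth limits genes of a few CPM, such as Hp, Pax7 and Omd, whose standard errors were 0.39, 0.37 and 0.30.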

Other observations

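Cebpd, which encodes a transcription factor of the acute-phase response, and Angptl4, which encodes a secreted inhibitor of lipoprotein lipase, were named after their values were seen, because they passed in an alternative. Cebpd was at 56.3 ± 15.5 CPM in the control and 41.9 ± 9.13 CPM with agrin and 11-3F6xb12 (SD, n = 4 each), a log2 fold change of -0.41 with an adjusted p of 0.996 in edgeR with the block. Angptl4 was at 71.2 ± 21.1 against 57.8 ± 11.2 CPM, a log2 fold change of -0.28 with the same adjusted p. Slpi, which encodes a secreted protease inhibitor, was at 7.90 ± 4.79 against 5.19 ± 3.41 CPM, a log2 fold change of -0.68.

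Lars2, the gene of the mitochondrial leucyl-tRNA synthetase, was the 1 gene above 8 CPM with an absolute log2 fold change over 1. It was chosen after its values were seen. Its log2 fold change was -1.57 with a standard error of 0.89, and the paired differences were -0.57, 0.87, -4.06 and -0.35, so that replicate 3 set the value.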
